A study of Mus musculus with 16 samples.

Results

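A set of 8 genes that make, move and use lactate and pyruvate were followed in mouse hearts with and without PKM2, before and after myocardial infarction (MI). They were chosen by name for their roles, with earlier results of these data known, and are 8 of the 55492 genes in the table. *Ldha*, *Ldhb* and *Ldhd* encode lactate dehydrogenases. *Slc16a1* and *Slc16a3* encode the monocarboxylate transporters MCT1 and MCT4, and *Bsg* encodes basigin, the partner that carries both transporters to the plasma membrane. *Mpc1* and *Mpc2* encode the subunits of the mitochondrial pyruvate carrier.

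Libraries were made from left ventricles of 16 male C57BL/6 mice aged 8 to 12 weeks. Of the PKM2fl/fl mice, which carry a floxed *Pkm* allele and no deletion, 2 were untreated, 3 had sham surgery and 3 had MI by permanent ligation of the left anterior descending coronary artery. The PKM2-/- mice, which lack PKM2 in every cell, had the same numbers in the same treatments. Hearts of operated mice were taken at day 3. PKM2 was removed by a Cre under the CMV promoter that was later bred out, so a difference between genotypes cannot be assigned to 1 cell type, and the ventricle was pulverized whole, with injured and spared muscle together.

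Lactate dehydrogenase works as a tetramer of A subunits, from *Ldha*, and B subunits, from *Ldhb*. The A subunit is abundant in glycolytic tissue and the B subunit in the heart, where lactate is taken up as a fuel and turned back into pyruvate. *Ldhd* encodes a mitochondrial enzyme that oxidizes D-lactate. MCT1 has a high affinity for lactate and is the main form in heart muscle, whereas MCT4 is abundant in cells that export lactate, such as glycolytic muscle and activated macrophages. Pyruvate enters mitochondria through the MPC1 and MPC2 heterodimer, and neither subunit transports it alone.

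All 8 genes passed the filter on low values, a mean of at least 10 normalized counts. A normalized count is the number of reads on a gene divided by the size factor of its library. Total reads ranged from 20623769 to 71855101 per library, and the lowest read number behind any value of the 8 genes was 29, for *Slc16a3* in a baseline heart. Reads on rRNA-related loci took 15.8% to 46.1% of a library. Without MI they took 15.8% to 27.8% in PKM2fl/fl hearts and 28.7% to 46.1% in PKM2-/- hearts, with no overlap. After MI the shares were 19.9% to 44.8% and 16.1% to 34.5%, which overlapped. The part of this share in the differences between genotypes was not tested. *Pkm*, the targeted gene, had 7779 to 9602 normalized counts in PKM2fl/fl hearts without MI and 11710 to 14242 in PKM2-/- hearts without MI. These reads join the PKM1 and PKM2 isoforms, so they do not check the deletion of exon 10. Over the 3 treatments the log2 fold change of *Pkm* between genotypes was 0.40 (SE 0.10, adjusted p = 0.13 from limma). All 8 cardiomyocyte markers were abundant, with a summed level of 789413 to 1016910 normalized counts in the 10 hearts without MI. The 3 adipocyte markers were near 0, at 2.65 to 89.4 summed normalized counts over all hearts.

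The genes lie on 8 different chromosomes. In GRCm38.p6, the build the reads were aligned to, they are *Ldha* at chr7:46842274-46855627, *Ldhb* at chr6:142490249-142507957, *Ldhd* at chr8:111625611-111630336 and *Slc16a1* at chr3:104638664-104658462. The others are *Slc16a3* at chr11:120948484-120959000, *Bsg* at chr10:79704358-79711979, *Mpc1* at chr17:8283787-8297667 and *Mpc2* at chr1:165461260-165481218. *Ldhb* and *Ldhd* are on the reverse strand. Promoter sequence from RefSeq was matched for 7 of the 8 genes, at 9 start sites, and *Bsg* was not matched. The 250 bases before each start were searched on both strands for ACGTG, the core bound by hypoxia-inducible factors, since *Ldha* and *Slc16a3* are textbook targets of HIF-1. It was present before 16.6% of 32851 promoters of the same length. The sequence CACGTG reads the same on both strands and holds 2 overlapping matches. The stretches of 30 bases with matches are shown 5′ to 3′ in the direction of the gene, with the matches in capitals:

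Ldha, chr7:46845647-46845676: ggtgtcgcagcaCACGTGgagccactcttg

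Ldha, chr7:46845751-46845780: gcctaCACGTGggttcccgCACGTccgctg

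Slc16a3, chr11:120949034-120949063: gcggtgACGTGcgcgggggACGTGccgcgc

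Slc16a1, chr3:104638452-104638481: gcggcgccgggtCACGTGgcgggaaggggg

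Ldhd, chr8:111630458-111630487: gttgacttgtaaCACGTGaagtagctgttg

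*Ldha* had 5 matches before the first of its 2 listed starts, and 1.22% of promoters had 3 or more. *Slc16a3*, *Slc16a1* and *Ldhd* had 2 matches each, and 6.81% of promoters had 2 or more. *Ldhb*, *Mpc1* and *Mpc2* had 0 matches to ACGTG, which says only that these letters were not in the window. GCGTG, the other form of this core, was present before 28.2% of promoters. It occurred 1 time each before *Ldhb*, *Mpc2*, the first start of *Mpc1* and the second start of *Ldha*, and 2 times before *Slc16a1*. A match is a description of the letters and not a bound site.

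After MI, 6 of the 8 genes fell by at least 2-fold in both genotypes with the deposited scaling, *Slc16a3* rose and *Ldha* did not pass the test. MI was compared with sham in a limma fit of log2(normalized count + 1) with all 16 libraries in 6 groups. All p-values were adjusted by Benjamini-Hochberg over the 20576 genes tested, and a gene was called at an adjusted p under 0.05. MI moved much of the transcriptome. Of all genes tested, 50.1% were called in PKM2fl/fl hearts (24.8% higher, 25.3% lower) and 56.8% in PKM2-/- hearts (28.7% higher, 28.1% lower). With a 2-fold change required as well, 12.4% were higher and 11.1% lower in PKM2fl/fl hearts, and 14.5% and 14.3% in PKM2-/- hearts. For 30.0% and 29.0% of all genes every MI heart was above, or below, every sham heart in PKM2fl/fl mice, and for 31.7% and 30.6% in PKM2-/- mice. The share of all genes with the MI hearts of both genotypes above, or below, all other hearts was not computed. Scaled to reads outside rRNA-related loci, the split was 5669 higher and 3638 lower in PKM2fl/fl hearts, against 5097 and 5202 with the deposited scaling. In PKM2-/- hearts it was 8600 and 3301, against 5899 and 5780. That scaling moved the median log2 fold change of all genes to 0.13 and 0.36. The fall of the 6 genes and the rise of *Slc16a3* kept their direction and their call under it. The 2-fold size was not kept by *Slc16a1* and *Bsg* under every alternative. Their smallest falls over 9 alternatives were log2 fold changes of -0.90 and -0.99 in PKM2fl/fl hearts and -0.83 and -0.92 in PKM2-/- hearts.

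**Figure D1:**
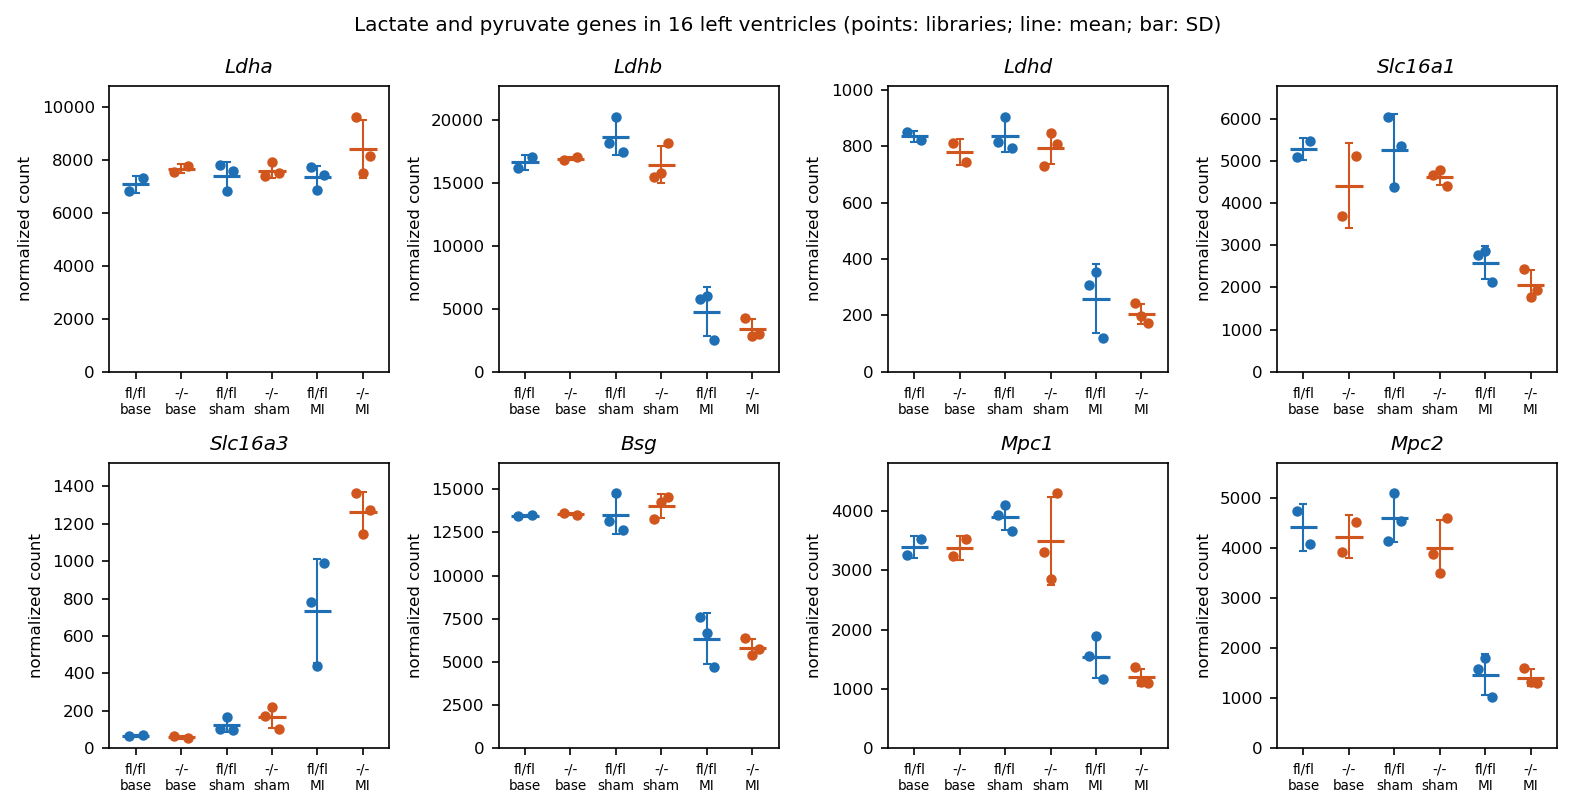
Normalized counts of the 8 genes (y axis, from 0) in each of the 16 libraries by genotype and treatment (x axis). Points are libraries, horizontal lines are group means and bars are SD. *Ldha* stayed between 6819 and 9639 in every library. *Slc16a3* rose after MI and the other 6 genes fell, with no overlap between MI and sham libraries of the same genotype for these 7.

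*Ldha* was nearly level across the study. It had 6847 and 7309 normalized counts at baseline and 7827, 6819 and 7583 after sham in PKM2fl/fl hearts, and 7727, 6877 and 7419 after MI. PKM2-/- hearts had 7552 and 7788 at baseline, 7387, 7914 and 7506 after sham and 9639, 7501 and 8160 after MI. The MI and sham hearts overlapped in both genotypes. The log2 fold change was -0.01 in PKM2fl/fl hearts (SE 0.10, adjusted p = 0.93 from limma), with a 95% interval from -0.24 to 0.21. In PKM2-/- hearts it was 0.14 (SE 0.10, adjusted p = 0.263), with an interval from -0.08 to 0.37. Only the scaling to reads outside rRNA-related loci gave a call there, at 0.49 (adjusted p = 0.00719) against an all-gene median of 0.36.

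*Ldhb*, the heart subunit, had the largest estimated fall of the 8 genes in both genotypes. In PKM2fl/fl hearts it had 16194 and 17031 normalized counts at baseline, 18140, 20244 and 17473 after sham and 5781, 6041 and 2503 after MI. The PKM2-/- hearts had 16822 and 17004 at baseline, 15440, 15759 and 18120 after sham and 4282, 2829 and 3009 after MI. The 6 MI hearts were below the other 10, and replicate 3 of PKM2fl/fl MI was the lowest of all. The log2 fold change was -2.07 in PKM2fl/fl hearts (SE 0.25, adjusted p = 1.1e-05 from limma) and -2.31 in PKM2-/- hearts (SE 0.25, adjusted p = 2.64e-06).

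*Ldhd* had a lower level and a similar fall. It had 850.1 and 822 normalized counts at baseline and 814, 905 and 794 after sham in PKM2fl/fl hearts, and 308, 353 and 120 after MI. Levels in PKM2-/- hearts were 812 and 746, then 729.9, 846 and 809 after sham, and 242, 197 and 175 after MI. Replicate 3 of PKM2fl/fl MI was again the lowest, and the groups did not overlap. The log2 fold changes were -1.83 and -1.96 (SE 0.28 in both, adjusted p = 6.76e-05 and 2.38e-05 from limma). Exons of *Znrf1* lie opposite those of *Ldhd*, and without strand information their reads cannot be told apart.

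The transporters moved in opposite directions. *Slc16a1* had 5088 and 5471 normalized counts at baseline, 6047, 4370 and 5363 after sham and 2761, 2855 and 2131 after MI in PKM2fl/fl hearts. PKM2-/- hearts had 3695 and 5116 at baseline, 4664, 4782 and 4395 after sham and 2446, 1767 and 1930 after MI. All MI hearts were below all others, and the log2 fold changes were -1.03 and -1.18 (SE 0.16 in both, adjusted p = 8.04e-05 and 1.5e-05 from limma). *Slc16a3* was the scarcest of the 8 genes before injury. It had 63.6 and 71 normalized counts at baseline, 104, 167 and 100 after sham and 782, 438 and 988 after MI in PKM2fl/fl hearts. Levels in PKM2-/- hearts were 64.1 and 53.1 at baseline, 174, 223 and 106 after sham and 1364, 1146 and 1272 after MI. Every MI heart was above every other heart. The rise was 5.75-fold in PKM2fl/fl hearts (log2 2.52, SE 0.29, adjusted p = 7.24e-06 from limma) and 7.81-fold in PKM2-/- hearts (log2 2.97, SE 0.29, adjusted p = 1.1e-06).

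Surgery without ligation also moved *Slc16a3*. Averaged over both genotypes, it was 2.20-fold higher after sham than at baseline (log2 1.14, SE 0.23, adjusted p = 0.00857 from limma). It was the only one of the 8 genes called in that comparison, in which 6.54% of all genes were called. Of the other 7, *Mpc1* had the largest difference, at 0.11 on the log2 scale (SE 0.13, adjusted p = 0.723 from limma). *Ldha*, *Ldhb*, *Ldhd*, *Slc16a1*, *Bsg* and *Mpc2* lay within 0.06 of 0. The 1346 calls over all genes fell to 690 and 753 without replicates 1 and 2 of PKM2fl/fl baseline, 872 without replicate 1 of PKM2fl/fl sham and 838 without replicate 2 of PKM2-/- baseline. *Slc16a3* was called without each library. In the same comparison all 8 macrophage and monocyte markers and all 5 neutrophil markers rose, with medians of 0.91 and 3.23. Of the fibroblast markers 3 of 6 rose, with a median of 0.53, and of the atrial markers 3 of 4, with a median of 2.14. The part of these markers in the rise of *Slc16a3* was not tested. Exons of *Csnk1d* lie opposite *Slc16a3* over 1894 bases. *Csnk1d* changed by 0.20 and 0.29 after MI (adjusted p = 0.057 and 0.0068 from limma). Exons of *Ccdc57*, with a mean of 166 normalized counts, also lie opposite *Slc16a3*, over 452 bases. The part of reads from these genes in the rise of *Slc16a3* was not tested.

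*Bsg* fell after MI as *Slc16a1* did. It had 13447 and 13493 normalized counts at baseline, 13146, 14770 and 12637 after sham and 7621, 6687 and 4728 after MI in PKM2fl/fl hearts. The PKM2-/- hearts had 13622 and 13513, then 13261, 14246 and 14548 after sham, and 6381, 5380 and 5733 after MI. The MI hearts stood apart from the rest, with log2 fold changes of -1.12 and -1.27 (SE 0.14 in both). *Emb* encodes embigin, a second partner of monocarboxylate transporters, and it moved the other way, with log2 fold changes of 2.19 and 2.54 (SE 0.28 in both, adjusted p = 1.8e-05 and 3.1e-06 from limma).

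Both pyruvate carrier subunits fell together. *Mpc1* had 3266 and 3522 normalized counts at baseline, 3937, 4104 and 3655 after sham and 1563, 1888 and 1176 after MI in PKM2fl/fl hearts. PKM2-/- hearts had 3237 and 3524, then 3309, 2852 and 4301 after sham, and 1364, 1113 and 1107 after MI. The MI hearts were all below the others, with log2 fold changes of -1.36 and -1.53 (SE 0.16 in both). *Mpc2* had 4756 and 4089 normalized counts at baseline, 4151, 5107 and 4551 after sham and 1583, 1814 and 1028 after MI in PKM2fl/fl hearts. Levels in PKM2-/- hearts were 3934 and 4536, then 3892, 3514 and 4612 after sham, and 1611, 1329 and 1303 after MI. Its MI hearts were again below all others, with log2 fold changes of -1.68 and -1.50 (SE 0.17 in both).

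The *Mpc1* values carry an uncertainty of their own. Its copy *Mpc1-ps* had a mean of 791 normalized counts, 28.8% of the mean of *Mpc1*, and fell by 1.29 and 1.44 on the log2 scale after MI. Reads that match both could be split between them. An antisense gene, *4930506C21Rik*, overlaps *Mpc1* by 217 bases and fell by 1.28 and 1.57. *Dcaf6* lies opposite *Mpc2* in the same way and fell by 0.60 and 0.76. For the lactate dehydrogenases the copies were scarce, at 0.939% of the mean of *Ldha* for *Ldha-ps2* and 0.364% of the mean of *Ldhb* for *Ldhb-ps*.

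**Figure D2:**
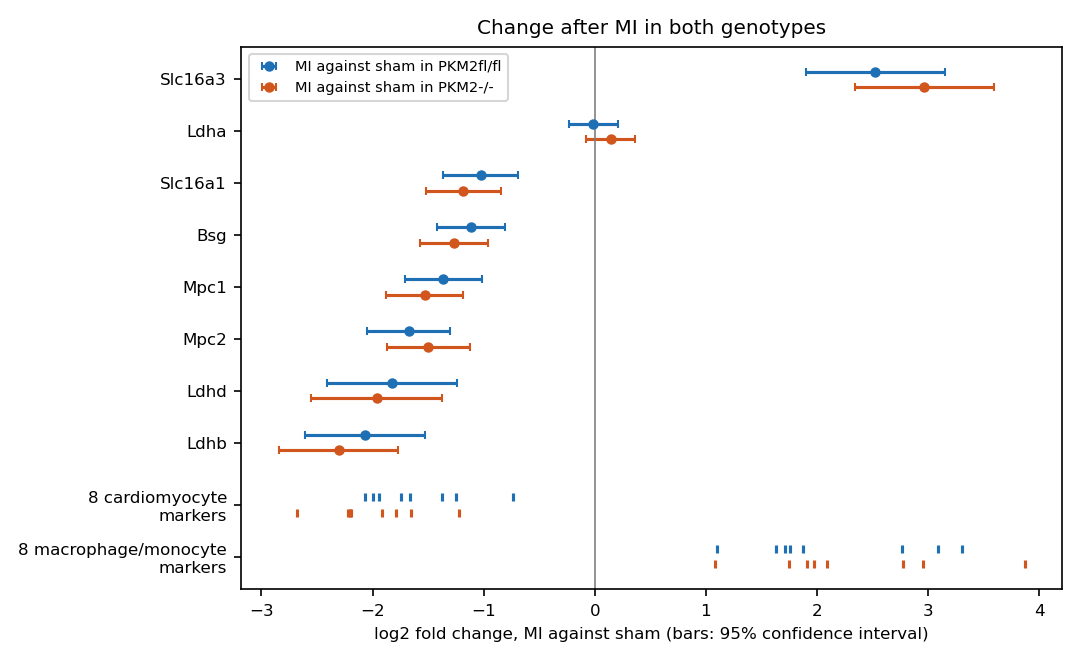
Log2 fold change between MI and sham (x axis) for the 8 genes in PKM2fl/fl (blue) and PKM2-/- (orange) hearts. Points are estimates with 95% confidence intervals, and the lower rows mark each of the 8 cardiomyocyte and 8 macrophage and monocyte markers. *Ldhb* was lowest at -2.07 and -2.31, *Slc16a3* highest at 2.52 and 2.97, and the intervals of *Ldha* held 0.

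Cell type markers moved with these changes. Of the 8 cardiomyocyte markers, 7 fell in PKM2fl/fl hearts and 8 in PKM2-/- hearts, with median log2 fold changes of -1.70 and -2.06. All 8 macrophage and monocyte markers rose in both, with medians of 1.82 and 2.03. Of 6 fibroblast markers, 4 rose and 1 fell in both, with medians of 1.62 and 1.76, and their summed level was 20975 to 38717 normalized counts after sham and 115293 to 154614 after MI. In RNA from whole ventricle, fewer cells of a type and less RNA per cell cannot be told apart. *Ldhb* fell more than 7 of the 8 cardiomyocyte markers in both genotypes. *Slc16a1* fell less than 7 of them in PKM2fl/fl hearts and less than 8 in PKM2-/- hearts, and *Bsg* less than 7 in both. The part of the markers in the change of the 8 genes was not tested. The summed cardiomyocyte level was 406338, 381866 and 176807 normalized counts in the 3 PKM2fl/fl MI hearts and 262177, 187783 and 181446 in the 3 PKM2-/- MI hearts. Replicate 3 of PKM2fl/fl MI was the lowest in these markers as well as in *Ldhb*, *Ldhd*, *Bsg* and *Mpc2*.

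Levels were also compared between genes, as normalized counts per kilobase of the canonical transcript. The order between genes depends on this choice of length. The canonical transcripts of *Ldhb*, *Bsg* and *Mpc2* have 1529, 1809 and 1390 bases, whereas their joined exons over all transcripts have 4496, 2777 and 8055. Levels per kilobase of joined exons are not given here. In PKM2fl/fl hearts at baseline the order was *Ldhb* (10865 ± 387, SD, n = 2), *Bsg* (7446 ± 17.9), *Ldha* (4457 ± 206), *Mpc2* (3182 ± 339), *Mpc1* (3009 ± 161), *Slc16a1* (1147 ± 58.8), *Ldhd* (286 ± 6.78) and *Slc16a3* (14.3 ± 1.11). Only the neighbors *Mpc1* and *Mpc2* overlapped. After MI in PKM2fl/fl hearts the level per kilobase was 4623 ± 271 (SD, n = 3) for *Ldha*, 3508 ± 816 for *Bsg* and 3123 ± 1290 for *Ldhb*, and the last pair overlapped. In PKM2-/- hearts it was 5310 ± 690 for *Ldha*, 3224 ± 281 for *Bsg* and 2206 ± 518 for *Ldhb*, with no overlap. *Slc16a3* stood at 157 ± 59.1 and 268 ± 23.2 per kilobase after MI, beside *Ldhd* at 88.8 ± 42.2 and 69.9 ± 11.8, and these groups overlapped in PKM2fl/fl hearts but not in PKM2-/- hearts.

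The ratio of 2 genes within a library does not depend on its size factor. Per kilobase, the *Ldha*:*Ldhb* ratio was 0.407 and 0.413 at baseline, 0.415, 0.324 and 0.418 after sham and 1.29, 1.10 and 2.85 after MI in PKM2fl/fl hearts. Values in PKM2-/- hearts were 0.432 and 0.441, then 0.461, 0.484 and 0.399 after sham, and 2.17, 2.55 and 2.61 after MI. *Ldha* was above *Ldhb* in 6 of 6 MI hearts and in 0 of 10 others. The ratio was 4.76-fold higher after MI than after sham (log2 2.25, exact two-sided permutation test within genotype, p = 0.005, adjusted p = 0.015 over 6 ratio tests). This p is the smallest that 400 relabelings allow.

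The *Slc16a3*:*Slc16a1* ratio per kilobase rose in the same direction. It was 0.0122 and 0.0127 at baseline, 0.0168, 0.0375 and 0.0183 after sham and 0.277, 0.15 and 0.454 after MI in PKM2fl/fl hearts. Values in PKM2-/- hearts were 0.017 and 0.0102, then 0.0364, 0.0457 and 0.0235 after sham, and 0.546, 0.635 and 0.645 after MI. *Slc16a1* stayed the higher of the pair in all 16 hearts. The ratio was 14.4-fold higher after MI (log2 3.85, exact permutation test, p = 0.005, adjusted p = 0.015). For *Mpc1*:*Mpc2* the change was 1.10-fold (log2 0.14, exact permutation test, p = 0.15, adjusted p = 0.18). In PKM2fl/fl hearts this ratio was 1.17, 0.99 and 0.99 after sham and 1.22, 1.28 and 1.41 after MI, with no overlap. In PKM2-/- hearts it was 1.05, 1.00 and 1.15 after sham and 1.04, 1.03 and 1.05 after MI, which overlapped, and the difference between genotypes in this change was not tested.

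**Figure D3:**
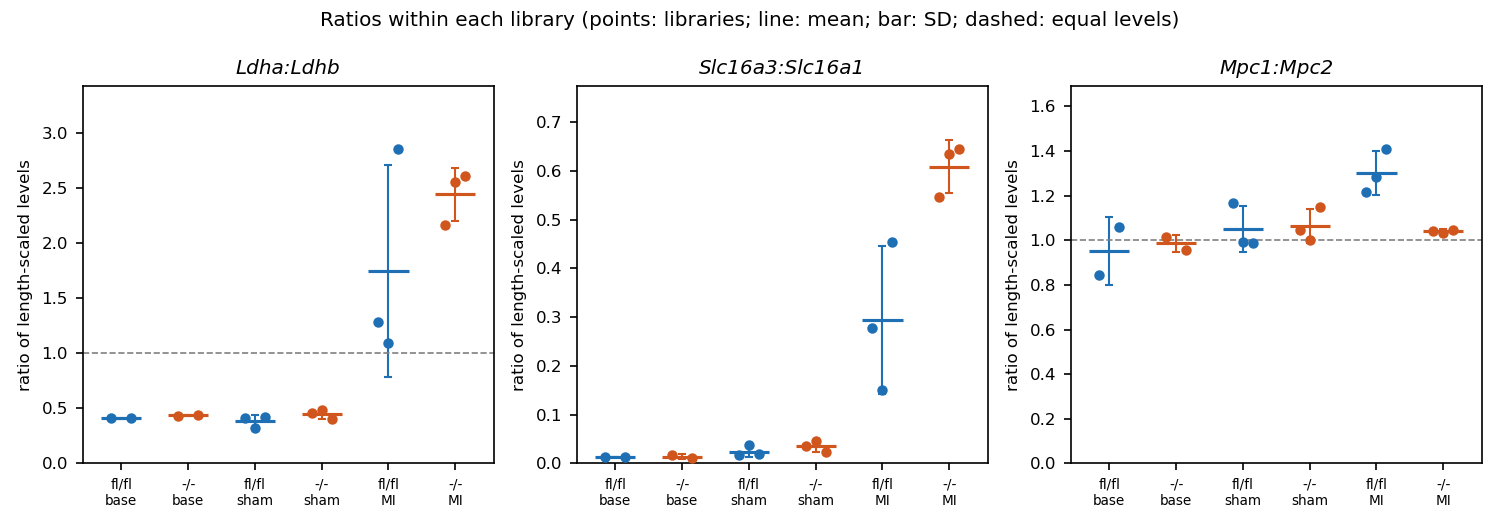
Ratio of length-scaled levels (y axis, from 0) of *Ldha* to *Ldhb*, *Slc16a3* to *Slc16a1* and *Mpc1* to *Mpc2* in each library by genotype and treatment (x axis). Points are libraries, lines are group means, bars are SD and the dashed line marks equal levels. *Ldha* passed *Ldhb* in all 6 MI hearts, whereas *Slc16a3* stayed below *Slc16a1*, at 0.645 or less.

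Loss of PKM2 gave no call among the 8 genes. This holds in limma for the genotype comparison at baseline, after sham, after MI and averaged over the 3 treatments, in which 0.00972%, 0.00972%, 0.967% and 0.102% of all genes were called. At an unadjusted p under 0.05 there were 0 of the 8 genes at baseline, 0 after sham, 2 after MI (*Slc16a3* and *Mpc1*) and 1 in the average (*Slc16a1*). Of all genes, 3.64%, 9.95%, 17.0% and 11.4% were at that level. With edgeR and DESeq2 on the recovered reads, 0 of the 8 were called in each. After MI, 2 of the 8 in edgeR and 5 in DESeq2 had an unadjusted p under 0.05. The share of all genes at that level with these tools is not given here. At baseline, where 2 hearts met 2, *Ldha* and *Bsg* were higher and *Ldhd* lower in both PKM2-/- hearts, with no overlap. Among all genes 17.7% were higher and 17.2% lower in that way. Scaled to reads outside rRNA-related loci, the baseline log2 differences of *Ldha* and *Bsg* changed sign, to -0.0076 and -0.11. After sham the log2 differences were 0.04 for *Ldha*, -0.18 for *Ldhb*, -0.08 for *Ldhd*, -0.18 for *Slc16a1*, 0.41 for *Slc16a3*, 0.05 for *Bsg*, -0.18 for *Mpc1* and -0.20 for *Mpc2*, and each 95% interval held 0. The same held at baseline, with log2 differences of 0.12 for *Ldha*, 0.03 for *Ldhb*, -0.10 for *Ldhd*, -0.28 for *Slc16a1*, -0.20 for *Slc16a3*, 0.01 for *Bsg*, -0.01 for *Mpc1* and -0.06 for *Mpc2*.

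*Slc16a3* had the largest estimate. After MI it was 1.80-fold higher in PKM2-/- than in PKM2fl/fl hearts (log2 0.85, SE 0.29, adjusted p = 0.157 from limma), with a 95% interval of 1.17 to 2.78-fold. The 3 PKM2-/- hearts were above the 3 PKM2fl/fl hearts, as for 10.7% of all genes. The adjusted p ranged from 1.46e-05 to 0.26 over 9 alternatives, and only edgeR without a filter on low counts gave a call. Summed levels of the 5 neutrophil markers were 3527 to 4521 normalized counts in PKM2-/- MI hearts and 1232 to 2138 in PKM2fl/fl MI hearts. Between genotypes after MI, 0 of these 5 were called in limma, edgeR or DESeq2. At an unadjusted p under 0.05 there were 4, 5 and 4 of the 5, against 17.0% of all genes in limma. Their median log2 difference was 1.60 in limma. Sums of the 8 macrophage and monocyte markers overlapped, at 29961 to 35202 and 22832 to 40242. The part of these markers in the *Slc16a3* difference was not tested.

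A single library bears on this comparison. Without replicate 3 of PKM2fl/fl MI, 4 of the 8 genes were called after MI, against 11.1% of all genes. *Ldhb*, *Ldhd* and *Mpc1* were then lower in PKM2-/- hearts, by log2 fold changes of -0.83, -0.70 and -0.53 (adjusted p = 0.00238, 0.00368 and 0.0323 from limma), and *Slc16a3* was higher, by 1.10 (adjusted p = 0.0289). With all 3 hearts the same differences were -0.42, -0.21, -0.35 and 0.85, and those of *Ldha*, *Slc16a1*, *Bsg* and *Mpc2* were 0.19, -0.34, -0.10 and -0.03. In the average over treatments, *Ldhb* and *Ldhd* were called without that library, at -0.33 and -0.29 (adjusted p = 0.0472 and 0.0485), against 3.49% of all genes. The summed cardiomyocyte level of the other 2 PKM2fl/fl MI hearts was above that of all 3 PKM2-/- MI hearts. With all libraries, the 8 cardiomyocyte markers differed between genotypes after MI by -0.79 to -0.05 on the log2 scale (median -0.44). In limma and edgeR 0 of these 8 were called, and in DESeq2 3 (*Myh6*, *Pln* and *Ryr2*). The part of these markers in the genotype differences of the 8 genes was not tested.

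*Slc16a1* had the smallest p in the average over treatments, at 0.833-fold in PKM2-/- hearts (log2 -0.26, SE 0.10, adjusted p = 0.314 from limma), with an interval of 0.72 to 0.963-fold. The intervals of *Ldha* (0.984 to 1.19-fold), *Bsg* (0.869 to 1.13-fold) and *Mpc2* (0.795 to 1.10-fold) held 1. On the log2 scale the averaged differences of the others were -0.19 for *Ldhb*, -0.13 for *Ldhd*, 0.35 for *Slc16a3* and -0.18 for *Mpc1*, none of them called. The *Slc16a3*:*Slc16a1* ratio was 1.53-fold higher in PKM2-/- hearts (log2 0.62, exact permutation test within treatment, p = 0.03, adjusted p = 0.06). It passed the threshold when replicate 2 of PKM2fl/fl sham, replicate 3 of PKM2fl/fl MI, replicate 2 of PKM2-/- baseline or replicate 3 of PKM2-/- sham was left out (adjusted p = 0.025, 0.0312, 0.0167 and 0.0433 by the exact permutation test). The *Ldha*:*Ldhb* ratio was 1.24-fold higher (log2 0.31, exact permutation test, p = 0.0717, adjusted p = 0.108), and 0.45 on the log2 scale without replicate 3 of PKM2fl/fl MI (adjusted p = 0.01). For *Mpc1*:*Mpc2* it was 0.946-fold (exact permutation test, p = 0.306, adjusted p = 0.306).

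**Figure D4:**
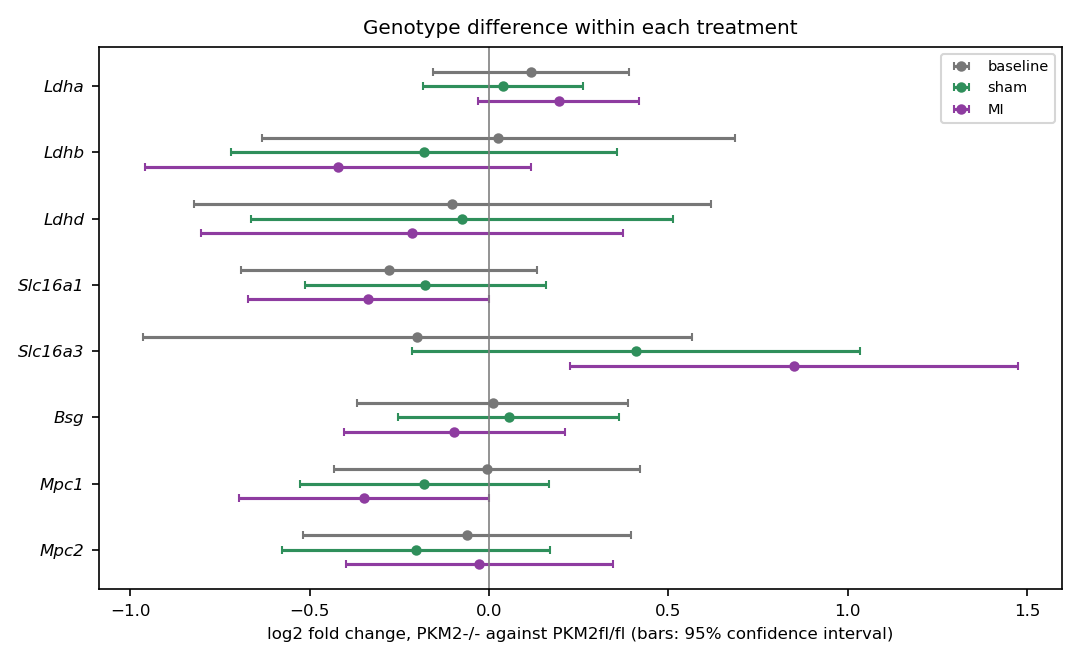
Log2 fold change between PKM2-/- and PKM2fl/fl hearts (x axis) for the 8 genes at baseline (gray), after sham (green) and after MI (purple), with 95% confidence intervals. Most intervals hold 0. After MI, that of *Slc16a3* runs from 0.23 to 1.48 and that of *Mpc1* from -0.70 to -0.0008. None of the 8 genes passed the threshold after adjustment over all genes.

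The response to MI was set directly against the genotype by an interaction term. Of the 8 genes, 0 were called in limma, with 0 at an unadjusted p under 0.05, and over all genes 0 were called with 1703 (8.28%) at an unadjusted p under 0.05. With edgeR and DESeq2 on the recovered reads, 0 of the 8 genes were called, against 0 and 52 of all genes. The largest estimate was that of *Slc16a3*, whose rise was 1.36-fold greater in PKM2-/- hearts (log2 0.44, SE 0.41, adjusted p = 0.799 from limma), with an interval of 0.736 to 2.50-fold. For *Ldhb* the ratio of changes was 0.847-fold, with an interval of 0.50 to 1.43-fold. On the log2 scale the differences of the MI effect were 0.15 for *Ldha*, -0.14 for *Ldhd*, -0.16 for *Slc16a1*, -0.15 for *Bsg*, -0.17 for *Mpc1* and 0.18 for *Mpc2*. Without replicate 3 of PKM2fl/fl MI, 486 of all genes were called (79 higher, 407 lower), 2.37% of those tested, and without replicate 3 of PKM2fl/fl sham or replicate 2 of PKM2fl/fl MI, 6 and 3. Among the 8 genes 0 were called without each library. Without replicate 3 of PKM2fl/fl MI, *Ldhd* and *Ldhb* were at -0.62 and -0.65 (adjusted p = 0.0839 and 0.101 from limma). The intervals with all libraries leave room for sizeable differences in either direction.

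Other genes around lactate and pyruvate fell for the most part after MI. Of 24 listed, 19 were tested, and 3 rose and 13 fell in PKM2fl/fl hearts, with 3 and 14 in PKM2-/- hearts. The median log2 fold changes were -0.99 and -1.16, beside -0.003 and 0.010 over all genes. *Pdhb* and *Pdha1*, subunits of the pyruvate dehydrogenase that uses carrier-delivered pyruvate, fell by 1.61 and 1.58 on the log2 scale in PKM2fl/fl hearts and by 1.75 and 1.68 in PKM2-/- hearts. Of the kinases that inhibit this enzyme, *Pdk3* rose by 1.76 and 1.74, whereas *Pdk1* fell by 0.99 and 1.06 and *Pdk2*, which had the largest fall of this list, by 1.88 and 2.46. *Pdk4* had log2 fold changes of -0.76 (adjusted p = 0.176 from limma) and -1.31 (adjusted p = 0.0214). *Pdk2* and *Pdk4* were named after their values were seen. *Me3*, a mitochondrial malic enzyme that makes pyruvate, fell by 1.32 and 1.55, and *Glo1*, which clears methylglyoxal on the path to D-lactate, by 0.77 and 0.99. *Pkm* had log2 fold changes of 0.31 (adjusted p = 0.11) and -0.07 (adjusted p = 0.70). Between genotypes 0 of the 19 were called in limma in any treatment or in the average, with 1 at an unadjusted p under 0.05 in the average and 3 after MI. edgeR on the recovered reads also called 0, and DESeq2 called *Pkm* after sham and in the average. In the limma average *Pkm* and *Me3* had the smallest p, at 0.40 and -0.19.

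The shuttles that carry electrons from cytosolic NADH into mitochondria, and so compete with lactate dehydrogenase for NADH, fell almost as a group. Of 9 genes, 8 fell in PKM2fl/fl hearts with 0 rising, and 8 fell with 1 rising in PKM2-/- hearts, with medians of -1.42 and -1.60. *Slc25a12* and *Slc25a11*, inner membrane carriers of the malate-aspartate shuttle, fell by 1.11 and 1.55 in PKM2fl/fl hearts and by 1.43 and 1.74 in PKM2-/- hearts. The malate dehydrogenases *Mdh1* and *Mdh2* fell by 1.58 and 1.29, and by 1.75 and 1.53. Between genotypes 0 of the 9 were called in limma, edgeR or DESeq2, with 1 at an unadjusted p under 0.05 in the limma average. There, *Slc25a13* (-0.28, adjusted p = 0.43) and *Mdh1* (-0.25, adjusted p = 0.47) had the smallest p in the average.

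Hypoxia-responsive genes did not share a direction. Of 12 genes, 3 rose and 5 fell in PKM2fl/fl hearts, and 4 rose and 6 fell in PKM2-/- hearts, with medians of -0.28 and -0.12. Among all genes, 24.8% rose and 25.3% fell in PKM2fl/fl hearts, and 28.7% and 28.1% in PKM2-/- hearts. All-gene shares are thus split between the directions as well. The glycolytic enzyme *Eno1* rose by 1.33 and 1.56 on the log2 scale and the glucose transporter *Slc2a1* by 1.54 and 1.70, as did the carbonic anhydrase *Car9*. *Pdk1*, the hexokinase *Hk2*, the growth factor *Vegfa*, the aldolase *Aldoa* and the mitophagy receptor *Bnip3* fell in both genotypes. Between genotypes, *Egln3* (0.49, adjusted p = 0.072) and *Slc2a1* (0.38, adjusted p = 0.24) had the smallest p in the average, in which 0 of 12 were called and 3 had an unadjusted p under 0.05 in limma. edgeR called 0 as well, and DESeq2 called *Egln3*. *Car9*, *Vegfa*, *Aldoa* and *Bnip3* were named after their values were seen.

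Of 6 regulators of these genes, 2 rose and 4 fell in both genotypes, with medians of -1.10 and -1.21. Among all genes, 24.8% rose and 25.3% fell in PKM2fl/fl hearts, and 28.7% and 28.1% in PKM2-/- hearts. *Myc* and *Hif1a*, whose products drive *Ldha* in many cells, rose by 2.71 and 1.02 on the log2 scale in PKM2fl/fl hearts and by 2.11 and 1.36 in PKM2-/- hearts. *Ppara* and *Esrra*, which drive oxidative genes in heart muscle, fell by 1.95 and 1.26 and by 2.57 and 1.25. Between genotypes 0 of 6 were called in the average in limma, edgeR or DESeq2, with 0 at an unadjusted p under 0.05, and *Myc* stood at 0.28 and *Ppargc1a* at 0.36.

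Genes with the most similar pattern were sought by Pearson's r of log2(normalized count + 1) over the 16 libraries, which share the MI contrast and their size factors, among 13469 genes with a mean of at least 100. *Ldhb* lay closest to *Sdhc*, *Sdhb* and *Bckdha* (r = 0.998, 0.997 and 0.997), of which the first pair encode subunits of succinate dehydrogenase. *Mpc2* lay closest to *Ndufb9*, *Cycs* and *Atp5g1* (0.997, 0.995 and 0.995). *Ldhd* lay closest to *Eci1*, *Gm49540* and *Etfbl* (0.996, 0.996 and 0.995). The nearest to *Mpc1* was its antisense partner *4930506C21Rik* (0.997), then *Metap1d* and *Myl2* (both 0.992). *Slc16a1* lay closest to *Kcnj12*, *Gm29331* and *Slmap* (0.981, 0.977 and 0.977), and *Slc16a3* to *Ugdh*, *Rbm47* and *Fgd3* (0.995, 0.992 and 0.99). *Ldha* had no close neighbor, with *Ppp1r2* at 0.848, *Rnf103* at 0.847 and *Eif5* at 0.812. No other member of the 8 was among the first 3 of any.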

How the data were processed

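RNA from left ventricles was depleted of rRNA and sequenced on paired ends. The authors aligned reads to mm10 with HISAT2 and counted them with featureCounts, and they deposited a normalized signal for each gene, its read count over the DESeq2 size factor. Strand and multi-mapping settings are not given in the sources used here. The deposited table also holds the authors' own baseline comparison, which was not used.

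The planned count test was replaced by limma 3.58.1 in R 4.3.3 on log2(value + 1), fitted to 16 libraries in 6 groups for genes with a mean of at least 10. Reads were recovered by division, and 100% of values were whole within 0.01 read. edgeR 4.0.16 and DESeq2 1.42.0 were run on them as alternatives, as were other scalings, pseudocounts, filters, a replicate block and each library left out. Ratios were compared by exact permutation tests. The fits were tested on simulated data. Each library came from its own mouse, and intervals cover the spread between mice. Same-numbered hearts did not deviate together (36 pairs, r from -0.20 to 0.13). No pair of libraries held identical values.

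The 8 genes and all lists were chosen with earlier results of these data known. All 8 genes were named in each comparison. From each other list the 4 genes with the smallest p in the MI comparisons, the 2 with the smallest p in the averaged genotype comparison and *Pkm* were to be named. Some genes were named beyond this rule, and among the genes around lactate and pyruvate not only *Pdk2* and *Pdk4*. The genes closest in pattern to *Bsg* are not reported here.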

Additional observations from a re-analysis of the deposited data

How the results depend on the processing

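The 7 calls of the 8 genes after MI in each genotype, and the call of *Slc16a3* between sham and baseline, were made under all 9 alternatives and without each library in turn. Between genotypes after MI, edgeR without a filter on low counts called 1 of the 8 genes (*Slc16a3*), against 0, and leaving out 1 library gave 0 to 4 calls (0 to 2 in the average over treatments). Over all genes, the genotype comparison after MI gave 199 calls, and 6 when fitted on its own groups, 138 and 1033 with edgeR and DESeq2 and 1710 with edgeR without a filter. At baseline and after sham 2 and 2 genes were called, and 214 and 716 with edgeR without a filter, 11 and 267 with DESeq2. In the average 21 were called, and 0 (limma) and 993 (edgeR) without a filter, 307 with DESeq2 and 10 with scaling outside rRNA-related loci. The interaction gave 0 calls, and 52 with DESeq2 and 538 with edgeR without a filter, and sham against baseline 1346, and 2376 with edgeR without a filter. The cause of these differences was not tested.

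The replicate numbers share no animals, so a fit with the replicate number as a block is given once. With the replicate block, 7 and 7 of the 8 genes were called after MI, 0 in each genotype comparison and 1 between sham and baseline, and over all genes 75 after MI between genotypes and 4 in the average. *Mpc2* between sham and baseline, which was not called, changed sign to 0.034 on the log2 scale.

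Small log2 differences that were not called changed sign, and the cause was not tested. With scaling outside rRNA-related loci, *Ldha* after MI in PKM2fl/fl hearts was 0.11. The interaction was 0.086 for *Ldhd*, 0.065 for *Slc16a1*, 0.072 for *Bsg* and 0.056 for *Mpc1*. Between genotypes at baseline *Ldha* was -0.0076, *Ldhb* -0.10 and *Bsg* -0.11, after sham *Ldha* was -0.021 and *Bsg* -0.0054, and after MI *Bsg* was 0.067 and *Mpc2* 0.14. Between sham and baseline *Mpc2* was 0.013. *Bsg* at baseline was -0.0073 with edgeR without a filter and -0.0075 with TMM scaling. *Slc16a3* between genotypes after MI was called at 0.79 by edgeR without a filter, and *Ldha* after MI in PKM2-/- hearts at 0.49 with scaling outside rRNA-related loci.

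Leaving out 1 library gave these ranges on the log2 scale. *Ldha* after MI in PKM2fl/fl hearts ran from -0.071 to 0.034. The interaction ran from -0.62 to 0.15 for *Ldhd* and from -0.063 to 0.35 for *Mpc2*. Between genotypes at baseline, *Ldhb* ran from -0.010 to 0.063, *Mpc1* from -0.068 to 0.055 and *Mpc2* from -0.17 to 0.047, and after sham *Ldha* from -0.020 to 0.080. Between genotypes after MI, *Ldhd* ran from -0.70 to 0.077, *Bsg* from -0.30 to 0.049 and *Mpc2* from -0.27 to 0.14, and in the average *Bsg* from -0.077 to 0.038. Between sham and baseline, *Ldhd* ran from -0.016 to 0.045, *Slc16a1* from -0.084 to 0.15, *Bsg* from -0.0087 to 0.048 and *Mpc2* from -0.069 to 0.040. The genotype difference in the ratio ran from 0.22 to 0.45 for *Ldha*:*Ldhb* and from 0.48 to 0.75 for *Slc16a3*:*Slc16a1*. With 2 or 3 hearts per group, a difference that was not called was not shown to be absent.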
